A study of Mus musculus with 24 samples.

Results

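Transcription factor genes of the chondrocyte, 10 in all, were followed through cartilage explants of mice under hydrostatic pressure, namely the SOX trio (Sox9, Sox5 and Sox6), the SOX9 relative Sox8, the forkhead genes Foxa2 and Foxa3, the homeobox gene Nkx3-2, the zinc finger gene Zbtb20, and Nfatc1 and Nfatc2. They were chosen by symbol, and all 10 of them were found among the 52178 genes of the count table and passed the filter on low counts, as did 21283 genes in all. RNA was sequenced in 24 libraries of 6 groups with 4 libraries each. Hip caps, the articular cartilage of the femoral head, were taken from C57/BL6 males 4 weeks of age, with both hip caps of 1 mouse in a sample. Metatarsals, which hold growth plate cartilage, came from embryos at day 15 (E15) of the same strain, with 6 in a sample and of unknown sex. Every explant was kept in culture for 24 h, stayed without pressure (0 MPa, the control) or met 5 MPa (the physiological pressure of the study) or 50 MPa (its injurious pressure) for 1 h, and was cultured for another 24 h. The sample labels write these pressures as mPa, and the unit of the study's methods was used. Tissue, age and culture medium differed together between hip caps and metatarsals, as sex may have, and these cannot be told apart.

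SOX9 is the transcription factor without which mesenchymal cells do not become chondrocytes. SOX5 and SOX6 have no activation domain of their own and act by binding beside SOX9 at the enhancers of cartilage matrix genes such as Col2a1 and Acan. SOX8 belongs to the same SOXE subgroup as SOX9. FOXA2 and FOXA3 drive genes of the hypertrophic chondrocyte, NKX3-2 holds chondrocytes back from hypertrophy by repressing Runx2, ZBTB20 is needed for terminal differentiation in the growth plate, and the NFAT proteins enter the nucleus when the phosphatase calcineurin removes their phosphates, NFATC1 being also the main driver of osteoclast formation.

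The upstream sequence of the members with the highest tissue differences is given here because these genes were high together in 1 tissue, along with the start of Sox6 that holds a SOX motif. Of the 3 Foxa2 starts, the one with a TATA box is shown. For 8 of the 10 genes RefSeq starts were matched (build GRCm38.p6, 16 starts), and the 250 bases before each start were searched on both strands for 5 short motifs. Capitals mark every match on either strand, the letters run 5′ to 3′ on the strand of the gene, and neighbouring matches may overlap.
Foxa2, chr2:148045465-148045714, minus strand: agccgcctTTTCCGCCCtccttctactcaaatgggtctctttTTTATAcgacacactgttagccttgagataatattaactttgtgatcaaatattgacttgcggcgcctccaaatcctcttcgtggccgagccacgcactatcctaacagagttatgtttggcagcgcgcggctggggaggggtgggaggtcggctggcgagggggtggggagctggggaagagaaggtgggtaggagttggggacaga
Foxa3, chr7:19023540-19023789, minus strand: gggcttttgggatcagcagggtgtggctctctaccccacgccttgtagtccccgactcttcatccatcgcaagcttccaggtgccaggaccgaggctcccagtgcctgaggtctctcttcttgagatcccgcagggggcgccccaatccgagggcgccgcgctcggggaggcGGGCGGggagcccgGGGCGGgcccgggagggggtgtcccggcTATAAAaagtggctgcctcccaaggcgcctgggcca
Sox8, chr17:25570687-25570936, minus strand: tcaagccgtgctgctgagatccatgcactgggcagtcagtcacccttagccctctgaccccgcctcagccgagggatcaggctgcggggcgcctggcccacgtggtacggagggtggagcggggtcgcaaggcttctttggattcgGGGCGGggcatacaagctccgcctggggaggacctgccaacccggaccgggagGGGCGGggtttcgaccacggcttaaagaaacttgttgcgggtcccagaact
Zbtb20, chr16:43247034-43247283, plus strand: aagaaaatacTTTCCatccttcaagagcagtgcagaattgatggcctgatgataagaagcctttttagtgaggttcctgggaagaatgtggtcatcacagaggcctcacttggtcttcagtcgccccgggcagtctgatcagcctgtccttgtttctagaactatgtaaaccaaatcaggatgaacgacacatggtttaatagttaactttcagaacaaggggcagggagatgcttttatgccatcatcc
Sox6, chr7:115824711-115824960, minus strand: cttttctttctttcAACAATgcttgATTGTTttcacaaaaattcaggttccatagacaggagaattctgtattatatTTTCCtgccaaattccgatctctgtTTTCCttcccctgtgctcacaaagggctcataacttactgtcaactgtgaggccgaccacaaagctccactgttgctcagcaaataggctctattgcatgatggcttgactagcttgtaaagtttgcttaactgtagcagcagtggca
The motifs were searched by their letters. The SOX site was searched as AACAAT and stood in 9.42% of all 32851 upstream sequences of this length. The FOXA site was searched as TGTTTAC and stood in 3.17% of these sequences. For the core that NFAT proteins bind, GGAAA, the share was 55.6% of the sequences. The TATA box was read as TATAAA, which 12.4% of the sequences held. The GC box was read as GGGCGG, and 32.7% of the sequences held it. Among the 16 starts of these genes, the SOX site occurred only before 1 of the 6 starts of Sox6, where it stood once on each strand. The FOXA site was found before 1 of the 2 starts of Nfatc2 and before no start of Foxa2, Foxa3, Sox8 or Zbtb20. GC boxes preceded 7 starts of 6 genes. Foxa3 held a TATA box and 2 GC boxes, Sox8 held 2 GC boxes, and neither was present before Zbtb20. The match of letters is a description of these windows and not of binding.

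The libraries differed in ways that touch every pressure comparison. The deposited counts summed to between 4185557 and 25104484 per library. Sequencing run and library type were uneven over the groups. All 4 hip cap libraries at 5 MPa were in run 2, the 3 control hip caps and the 3 hip caps at 50 MPa that the study used were in run 1, and at 50 MPa all were unstranded while 1 of the 3 controls was (HC3). The study left out control hip cap HC4 and hip cap H502 (50 MPa) as outliers, and values below are over its 22 libraries unless these are named. With run and library type as model terms, the libraries of a group did not count equally in a fitted fold change. By least squares on this design, HC1, HC2 and HC3 had weights of -0.12, -0.12 and -0.76 for hip caps at 50 MPa against controls. Between control tissues, MC1 had -0.64, MC2, MC3 and MC4 had -0.12 each, and M504 (50 MPa) had -0.36. The 6 chondrocyte markers (Col2a1, Acan, Col9a1, Matn1, Hapln1 and Cnmd) were above 1 CPM (count scaled to the size of the library) in every library used. Their summed level was 40690 to 66330 CPM in control hip caps, 18440 to 45080 CPM at 5 MPa, 27480 to 31320 CPM at 50 MPa and 1367 to 3816 CPM in metatarsals. HC4 held 8028 CPM and H502 held 11670 CPM. In bulk tissue, fewer cells of a type and less RNA per cell cannot be told apart.

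**Figure D1:**
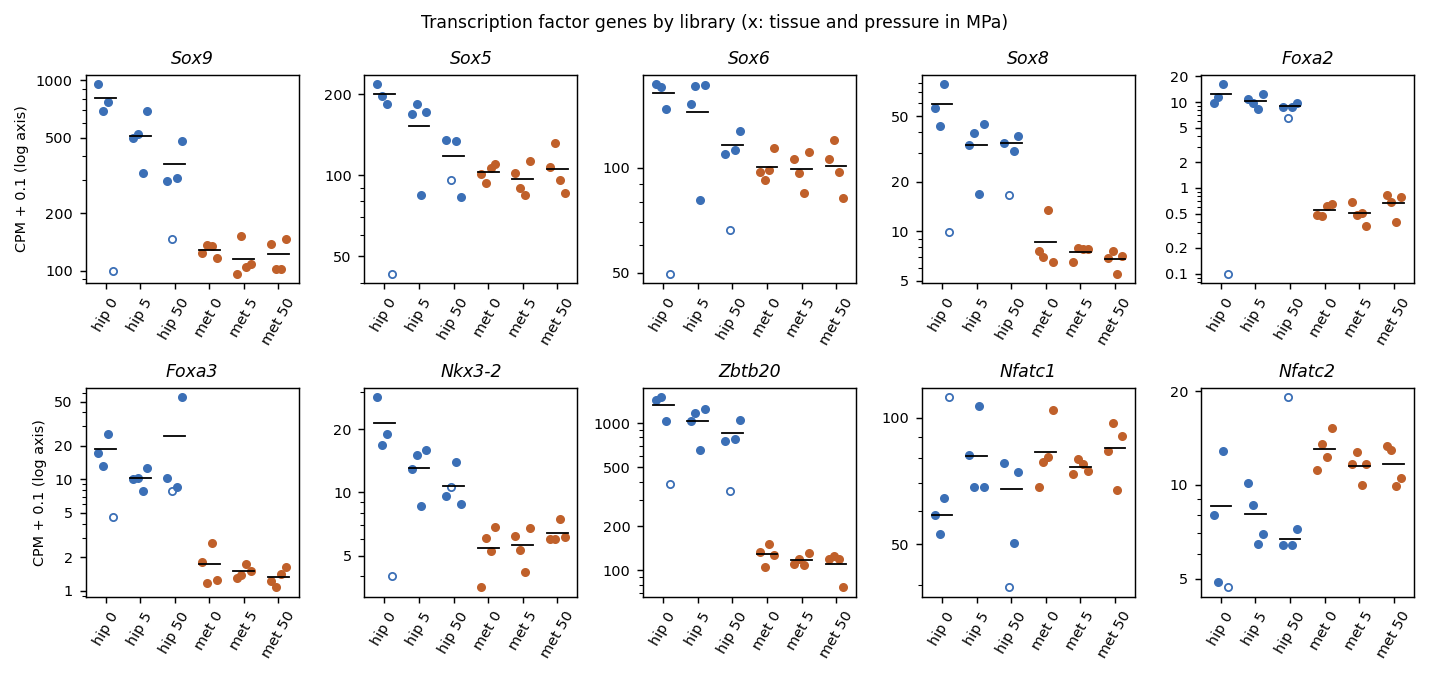
Level of each of the 10 genes in each library as CPM plus 0.1 on a log axis, with hip caps in blue and metatarsals in orange, lines at the means of the libraries used, and open circles for the 2 libraries the study left out. Sox9, Sox8, Foxa2, Foxa3, Nkx3-2 and Zbtb20 sit higher in every control hip cap used than in any control metatarsal, and the open circle of HC4 lies below the other control hip caps for 9 genes and above them for Nfatc1.

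The first comparison asked how articular and growth plate cartilage differ without pressure. In control hip caps 8 of the 10 genes were higher, from 1.82-fold for Sox6 to 26.4-fold for Foxa2, and none was lower past the threshold. All genes tested gave 14.1% higher calls (29.9% in either direction). The median log2 fold change of the 10 genes was 2.40, against -0.08 over all genes. The values of the same 8 genes did not overlap between the groups, which 19.6% of all genes did in that direction. Foxa2 rested on few counts in metatarsals. With the metatarsals fitted alone, 9 of the 10 genes passed the filter on low counts. With at least 10 counts asked of every library, Foxa2 and Foxa3 were not tested, and 6 of the 8 others were higher. Markers of other cells also differed between the control groups. The 12 skeletal muscle markers summed to 8.97 to 14.7 CPM in control hip caps and 1029 to 2522 CPM in control metatarsals, the 8 fibroblast and perichondrium markers to 196 to 365 CPM and 2466 to 2731 CPM, and the 8 osteoblast markers to 3909 to 6082 CPM and 2345 to 4600 CPM. Of the 8 osteoblast markers, 6 were called higher in control hip caps and 1, Col1a1 (-2.075), lower, with a median log2 fold change of 4.04. The 10 osteoclast markers summed to 369 to 581 CPM in control hip caps and 52.3 to 91.1 CPM in control metatarsals. The part of all these cells in the differences below was not tested.

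Sox9 (ENSMUSG00000000567, chromosome 11) was measured at 958, 690 and 775 CPM in the control hip caps and at 124, 136, 134 and 117 CPM in the control metatarsals. The lowest hip cap stood above the highest metatarsal. The log2 fold change was 2.55 (SE 0.33), with an edgeR adjusted p of 5.46e-06. In HC4, which is not in this comparison, Sox9 was at 98.8 CPM, below each control metatarsal.

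Sox5 and Sox6, the partners of SOX9 at its enhancers, had the smallest folds of the 8 genes. Sox5 was at 218, 197 and 184 CPM in control hip caps and at 101, 93.2, 106 and 110 CPM in control metatarsals, with a log2 fold change of 1.10 (SE 0.28, edgeR adjusted p = 0.00542). Sox6 was at 174, 170 and 147 CPM against 97.0, 92.2, 98.4 and 114 CPM, with a log2 fold change of 0.87 (SE 0.25, edgeR adjusted p = 0.0115). Neither pair of groups overlapped. Neither gene was called with all 24 libraries in the same model (log2 fold changes of 0.28 and 0.18), in run 1 alone, or with library sizes as the only scaling (0.18 and, for Sox6, -0.06). The calls of both were also lost without hip cap HC3, metatarsal MC1 or metatarsal M504, with edgeR adjusted p-values of 0.0533, 0.106 and 0.0598 for Sox5 and 0.0781, 0.148 and 0.0797 for Sox6.

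The trio was also compared as ratios within each library, which do not depend on the scaling. These ratios were chosen after the values had been seen. Sox9 was at 5.52, 4.06 and 5.26 times the CPM of Sox6 in control hip caps and at a mean of 1.28 times in control metatarsals (SD 0.192, n = 4, range 1.03 to 1.48). No values overlapped, and the difference of 1.95 on the log2 scale gave an exact two-sided permutation p of 0.0571, the smallest that 3 libraries against 4 allow (0.202 after Benjamini-Hochberg adjustment over 99 tests of ratios). Sox5 was at 1.22 times the CPM of Sox6 in control hip caps (SD 0.0529, n = 3, range 1.16 to 1.25). In control metatarsals it was at 1.02 times (SD 0.0494, n = 4, range 0.965 to 1.08). These values did not overlap either, with a smaller difference of 0.252 on the log2 scale (exact two-sided permutation p = 0.0571, 0.202 after the same adjustment). The genes were counted over transcripts of different length, so these are ratios of counts and not of molecules. Per kilobase of the longest coding transcript, the mean level in control hip caps was 195 CPM for Sox9, 27.6 CPM for Sox5 and 18.9 CPM for Sox6, and with the median coding transcript it was 195, 79.0 and 40.8 CPM. The order of the trio was thus Sox9, Sox5, Sox6 in control hip caps by either length. In control metatarsals Sox9 (30.9 CPM per kilobase) came above Sox5 by the longest transcript (14.2) and below it by the median transcript (40.6), so that order was not settled.

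**Figure D2:**
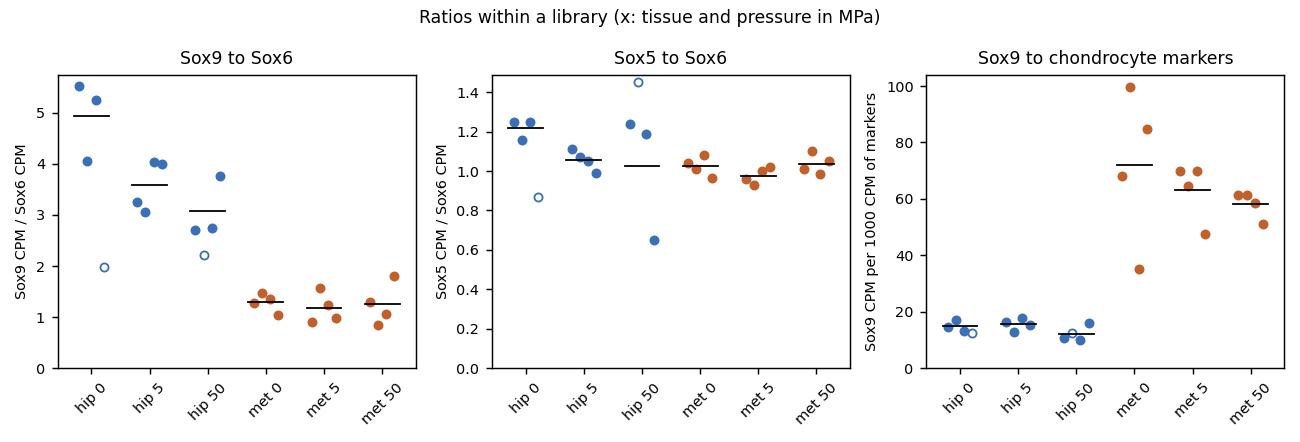
Ratios of CPM within each library by tissue and pressure, for Sox9 to Sox6, Sox5 to Sox6, and Sox9 per 1000 CPM of the summed chondrocyte markers, with points for libraries, open circles for the 2 left out and lines at the means of those used. Sox9 to Sox6 lies between 4.06 and 5.52 in the control hip caps and between 1.03 and 1.48 in the control metatarsals, while Sox9 relative to the chondrocyte markers is lower in hip caps.

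Relative to the summed chondrocyte markers, the order of the tissues was the other way round for Sox9, Sox5, Sox6, Sox8, Nkx3-2 and Zbtb20. Sox9 was at 14.4, 17.0 and 13.1 CPM per 1000 CPM of marker in control hip caps and at 35.1 to 99.6 in control metatarsals. Sox6 was at 2.49 to 4.18 and 25.8 to 82.7 on this scale, and Sox5 at 3.1 to 4.85 and 27.9 to 79.8. Sox8 was at 0.848 to 1.32 and 3.51 to 5.05, and Nkx3-2 at 0.318 to 0.426 and 1.35 to 4.88. Zbtb20 was at 17.4 to 36.7 and 39.7 to 91.8. Foxa2 overlapped between the tissues, at 0.143 to 0.278 in control hip caps and 0.135 to 0.392 in control metatarsals. The markers themselves differed between the tissues, so this scale compares the factors with matrix transcripts and not with cell number.

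Sox8, of the same subgroup as Sox9, was likewise higher in hip caps. It was at 56.3, 43.6 and 78.4 CPM in control hip caps and at 7.46, 6.90, 13.4 and 6.41 CPM in control metatarsals. The highest metatarsal, MC3, stood well below the lowest hip cap. The log2 fold change was 2.87 (SE 0.39, edgeR adjusted p = 1.51e-05). A long non-coding gene on the opposite strand, 2810468N07Rik, shares 329 exonic bases with Sox8 and holds counts equal to 10.7% of those of Sox8, and reads from the shared bases of the 2 genes cannot be told apart in unstranded libraries.

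Foxa2 had the highest fold of the 10 genes on low counts. Its level was 9.51, 11.3 and 16.1 CPM in control hip caps and 0.383, 0.374, 0.515 and 0.540 CPM in control metatarsals, which rested on 2 to 9 counts per metatarsal library. All hip caps lay far above all metatarsals. The log2 fold change was 4.73 (SE 0.44, edgeR adjusted p = 9.83e-08). HC4 had 0 counts of Foxa2, which allows up to 0.212 CPM (3 counts, for counting error only).

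Foxa3 was at 17.1, 13.2 and 25.4 CPM in control hip caps and at 1.72, 1.07, 2.57 and 1.16 CPM in control metatarsals. The log2 fold change was 3.32 (SE 0.76, edgeR adjusted p = 0.00309), and the groups did not overlap.

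Zbtb20, the most abundant of the 10 genes by count, was at 1434, 1494 and 1034 CPM in control hip caps and at 134, 105, 152 and 126 CPM in control metatarsals. No hip cap came near a metatarsal. The log2 fold change was 3.53 (SE 0.27, edgeR adjusted p = 8.16e-09). Nkx3-2 was at 28.3, 16.7 and 18.9 CPM against 3.45, 5.99, 5.15 and 6.72 CPM, a log2 fold change of 2.26 (SE 0.36, edgeR adjusted p = 7e-05). These groups did not overlap either.

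The NFAT genes did not share this direction. Nfatc1 was at 58.4, 52.8 and 64.4 CPM in control hip caps and at 68.3, 78.3, 80.3 and 104 CPM in control metatarsals, so that every hip cap was lower, as for 22.8% of all genes. Its log2 fold change of -0.40 (SE 0.22) did not pass the threshold (edgeR adjusted p = 0.19). Nfatc2 was at 7.88, 4.77 and 12.8 CPM against 11.1, 13.4, 12.2 and 15.1 CPM, with a log2 fold change of -0.45 (SE 0.27, edgeR adjusted p = 0.221) and overlapping values. When library sizes were the only scaling, the median over all genes moved from -0.08 to -0.97, and then 6 of the 10 genes were higher and 2, Nfatc1 (-1.31) and Nfatc2 (-1.37), were lower past the threshold. Within the stranded libraries alone, 8 were higher and the same 2 NFAT genes were lower. The counts were the same over the 22 libraries without batch terms and with library type as the only batch term. Nfatc1 in HC4 was the highest of all 24 libraries, at 112 CPM. The 10 osteoclast markers summed to 4987 CPM in HC4 and to 369 to 581 CPM in the control hip caps used, and the part of these cells in the Nfatc1 value was not tested.

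Hip caps and metatarsals were also compared at each pressure. At 5 MPa 8 genes were higher in hip caps (18.8% of all genes) and Nfatc2 was lower (19.1%). At 50 MPa 6 genes were higher (10.1%), namely, from the highest fold down, Foxa3, Foxa2, Zbtb20, Sox8, Sox9 and Nkx3-2, and Nfatc2 was lower (9.58%) with a log2 fold change of -0.90 (SE 0.28, edgeR adjusted p = 0.0288). Sox5 (0.41, edgeR adjusted p = 0.382) and Sox6 (0.48, edgeR adjusted p = 0.23) did not pass at 50 MPa. With library sizes as the only scaling, the counts were 5 higher and 2 lower at 5 MPa and 3 higher and 2 lower at 50 MPa.

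**Figure D3:**
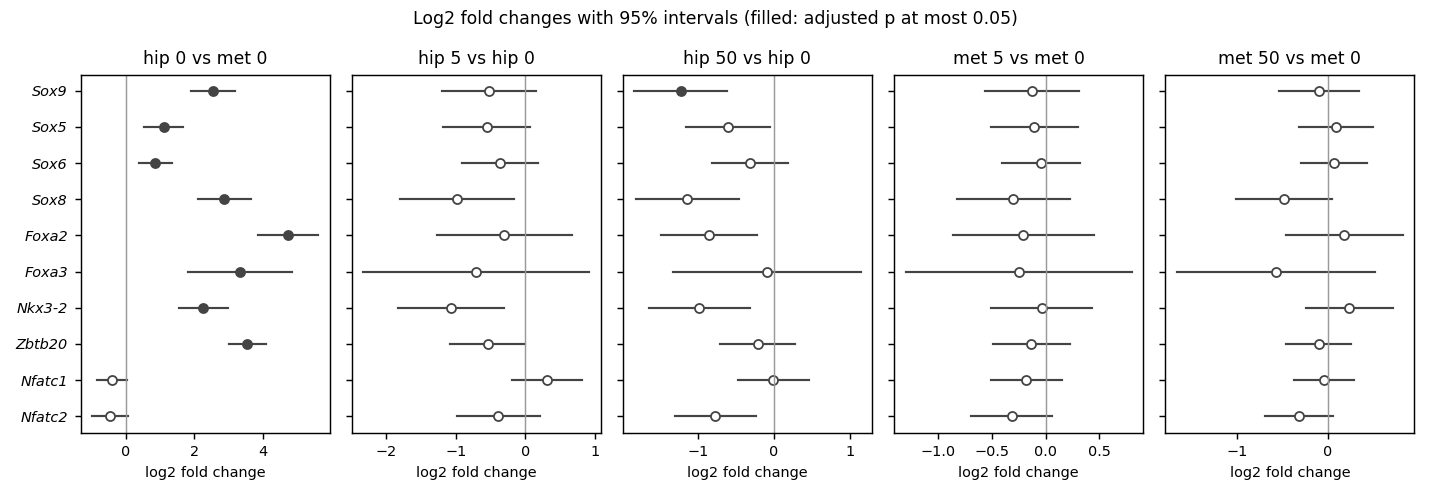
Log2 fold changes of the 10 genes with 95% intervals from the standard errors in 5 comparisons, named above each panel as first group against second, with filled points for edgeR adjusted p-values of at most 0.05. Filled points mark 8 genes between the control tissues, Sox9 alone at 50 MPa in hip caps, and no gene in the other panels, whose axes differ in range.

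The next comparisons asked what pressure did within each tissue. In hip caps at 50 MPa Sox9 fell, and it was the only one of the 10 genes that passed the threshold, against 5.18% of all genes (1.86% lower). All 10 log2 fold changes were at or below 0 (median -0.69). Over 38 alternative fits, 7 of them stayed below 0 in each fit that gave a value, while Foxa3 was above 0 in 8 (up to 0.388), Nfatc1 in 15 (up to 0.201) and Nfatc2 in 2 (up to 0.361). Of all genes 51% were above 0, with a median of 0.02. An unadjusted p under 0.05 was given for 6 of the genes and for 22.6% of all genes. The values of Sox9, Sox5, Sox6, Sox8 and Nkx3-2 at 50 MPa lay wholly below the controls, which 7.56% of all genes did.

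Sox9 was at 297, 308 and 481 CPM in hip caps at 50 MPa, against 958, 690 and 775 CPM in the controls. Each pressed hip cap was below each control, and the difference was 2.34-fold, a log2 fold change of -1.23 (SE 0.31, edgeR adjusted p = 0.0302). The exact permutation test of log2 CPM gave p = 0.1, two-sided, the smallest that 3 libraries against 3 allow. H502, left out, was at 147 CPM.

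The direction of Sox9 held in all 38 alternative fits, from -1.61 to -1.01, and its call did not. It passed in 26 of them and was lost in 12, with edgeR or DESeq2 adjusted p-values from 0.00482 to 0.435. It was lost with all 24 libraries under each set of batch terms tried, with library sizes as the only scaling, with each tissue fitted alone, and in run 1 alone (-1.18, edgeR adjusted p = 0.334). Leaving out HC3, the only unstranded control hip cap, gave -1.61 (edgeR adjusted p = 0.278), and leaving out hip cap H501 or H503 gave -1.10 and -1.19 (edgeR adjusted p = 0.0624 and 0.0701). The call was also lost without metatarsal MC1 or M504, the metatarsals in the run of these hip caps.

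**Figure D4:**
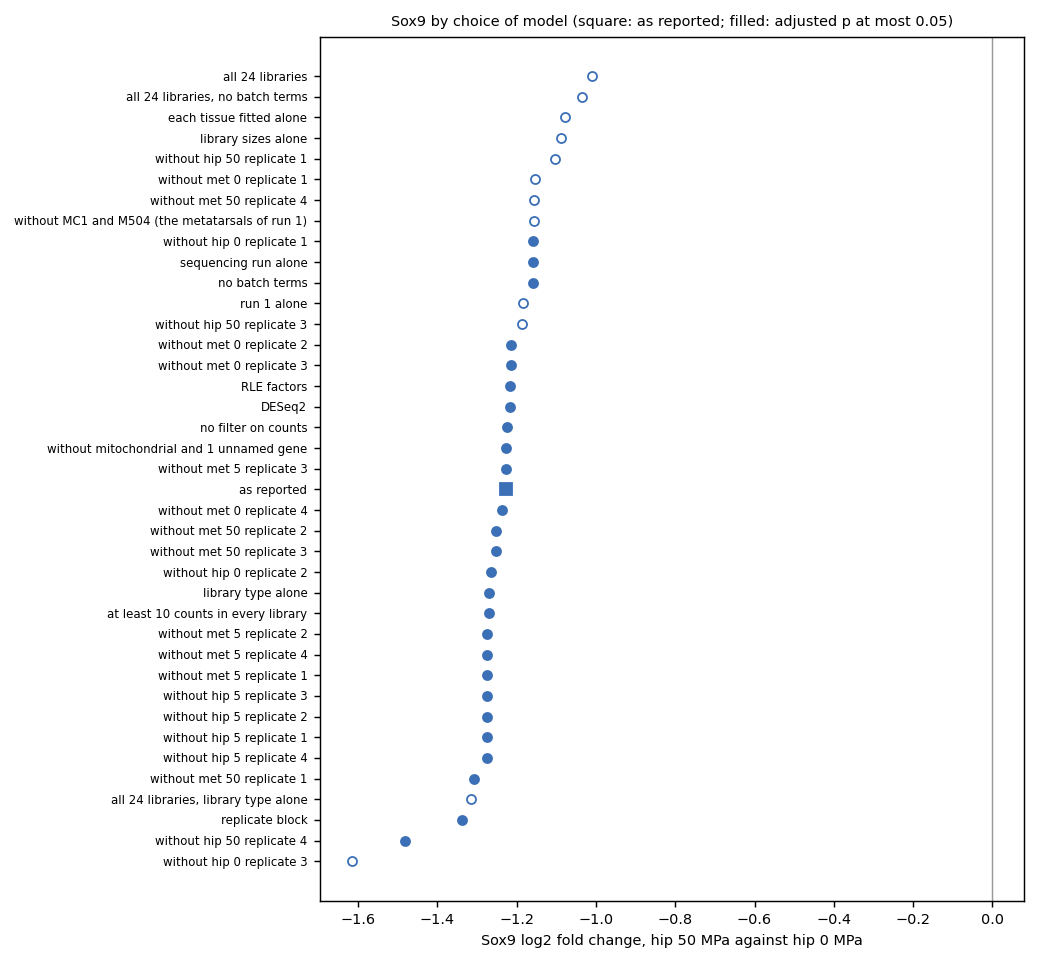
Log2 fold change of Sox9 between hip caps at 50 MPa and control hip caps under each choice of libraries, scaling, filter and model terms, ordered by value, with the fit as reported as a square and filled symbols for adjusted p-values of at most 0.05. All values lie below 0, between -1.61 and -1.01, and open symbols are found at both ends.

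Sums of cell type markers moved beside Sox9. The chondrocyte markers summed to 27480 to 31320 CPM at 50 MPa and to 40690 to 66330 CPM in the controls, without overlap. Sox9 per 1000 CPM of these markers was 10.8, 9.84 and 16.0 at 50 MPa and 14.4, 17.0 and 13.1 in the controls. On that scale the groups overlapped, and the difference was -0.30 on the log2 scale (exact two-sided permutation p = 0.3). All of these markers are also on the list of SOX trio target genes read below. Sox9 and its targets falling together would leave this ratio unchanged, so it cannot tell fewer chondrocytes from less Sox9 in each. The 10 osteoclast markers summed to 606 to 1794 CPM at 50 MPa and 369 to 581 CPM in the controls, the 8 macrophage markers to 86.7 to 105 CPM and 28.3 to 54.9 CPM, and the 8 fibroblast and perichondrium markers to 309 to 701 CPM and 196 to 365 CPM. The 12 skeletal muscle markers summed to 27.5 to 42.5 CPM and 8.97 to 14.7 CPM. By gene, none of the 9 osteoclast and 8 macrophage markers tested was called, and 9 and 5 of them were above 0. Of the 8 fibroblast and perichondrium markers 1 was called higher and 7 were above 0. Of the 12 muscle markers 1 was called higher and 8 were above 0. Over all genes 3.32% were called higher and 51% were above 0. The part of these cells in the Sox9 difference was not tested. Relative to Sox6, Sox9 was at 2.71, 2.75 and 3.77 at 50 MPa, below the 5.52, 4.06 and 5.26 of the controls. The exact two-sided permutation p was 0.1 (0.319 after Benjamini-Hochberg adjustment over 99 tests of ratios). At 5 MPa this ratio was 3.05 to 4.04, just below the lowest control of 4.06 (exact two-sided permutation p = 0.0571, 0.202 after the same adjustment). Relative to Sox5, Sox9 was at 2.19 to 5.8 at 50 MPa and 3.5 to 4.4 in the controls, which overlapped (exact permutation p = 0.4). Relative to Sox8 it was at 8.62 to 12.6 and 9.89 to 17, again with overlap (exact permutation p = 0.3).

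Sox8 was at 34.5, 30.8 and 38.1 CPM at 50 MPa, each below the lowest control of 43.6 CPM, with a log2 fold change of -1.14 (SE 0.35, edgeR adjusted p = 0.0605). Nkx3-2 was at 9.49, 13.8 and 8.67 CPM against a lowest control of 16.7 CPM, with a log2 fold change of -0.98 (SE 0.34, edgeR adjusted p = 0.0896). Foxa2, at 8.65, 8.67 and 9.59 CPM, overlapped the controls (log2 fold change -0.85, SE 0.32, edgeR adjusted p = 0.118). None of these passed the threshold in the fit as reported, while DESeq2 called Sox8 and Foxa2 along with Sox9. The plain differences of mean log2 CPM were -0.748 for Sox8, -0.981 for Nkx3-2 and -0.417 for Foxa2.

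Sox5 was at 135, 134 and 82.9 CPM at 50 MPa, all below the lowest control of 184 CPM, with a log2 fold change of -0.60 (SE 0.28, edgeR adjusted p = 0.214). Sox6 was at 110, 112 and 128 CPM, below the lowest control of 147 CPM, with a log2 fold change of -0.32 (SE 0.26, edgeR adjusted p = 0.494). The 2 genes parted in H504, where Sox5 was at 0.651 times the CPM of Sox6 and in the other 2 libraries at 1.19 and 1.24 times. Foxa3 was divided by the same library, at 10.1 and 8.39 CPM in H501 and H503 and 54.5 CPM in H504. Without H504 the log2 fold change of Foxa3 moved from -0.09 (edgeR adjusted p = 0.959) to -1.40 and passed the threshold.

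Zbtb20 was at 759, 780 and 1044 CPM at 50 MPa and Nfatc1 at 78.0, 50.3 and 74.3 CPM, both overlapping the controls (log2 fold changes of -0.21 and -0.003, edgeR adjusted p = 0.662 and 1). Nfatc2, at 6.33, 6.31 and 7.12 CPM, overlapped the controls at 7.88, 4.77 and 12.8 CPM. Its log2 fold change was -0.77 (SE 0.27, edgeR adjusted p = 0.0984), while the plain difference of mean log2 CPM was -0.25 (exact two-sided permutation p = 0.7).

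In hip caps at 5 MPa no gene of the 10 passed the threshold, and 0.0188% of all genes did (4 genes). Of the 10 log2 fold changes, 9 were below 0 (median -0.54, against 0.01 over all genes, of which 50.9% were above 0), and 2 genes had an unadjusted p under 0.05 (14.8% of all genes). These directions turned with the libraries and the scaling. With all 24 libraries in the same model, that is with HC4 and H502 added, those 9 genes were all above 0, from 0.106 for Nkx3-2 to 0.616 for Sox9 and 1.95 for Foxa2, and Nfatc1 was below 0. With library sizes as the only scaling, which put the median of all genes at 0.517, 7 of the 10 were above 0. DESeq2 called none of them, and edgeR without batch terms called 1, Sox8 at -0.83. Sox9 was at 496, 524, 327 and 690 CPM, and the highest of these (690.1) was just under the lowest control (690.4), so the groups did not overlap by the narrowest margin. Its log2 fold change was -0.53 (SE 0.34, edgeR adjusted p = 0.478). Sox5, Foxa3 and Nkx3-2 also lay wholly below the controls (7.85% of all genes) and Nfatc1 wholly above (8.4%). Nkx3-2 had the lowest value, -1.06 (SE 0.39, edgeR adjusted p = 0.222), followed by Sox8 at -0.98 (SE 0.42, edgeR adjusted p = 0.28).

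A single library, H53, was the lowest of the 4 hip caps at 5 MPa for 9 of the 10 genes and the highest for Nfatc1. It held Sox9 at 327 CPM, Sox5 at 84.7 CPM, Sox6 at 81.0 CPM and Nfatc1 at 106 CPM. Its chondrocyte markers summed to 18440 CPM, the least of the hip caps used, and its osteoclast and macrophage markers to 1818 and 237 CPM, the most. Without H53 the log2 fold change of Sox9 was -0.29 and that of Sox5 was -0.28, and none was called. Run 2 holds all 4 of these hip caps and none of the 3 controls used, so within hip caps pressure and run cannot be told apart without the metatarsals, on which the run term rests.

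Between 50 and 5 MPa in hip caps none of the 10 genes passed, as none of all genes did (0%, with 4.78% at an unadjusted p under 0.05 and none of the 10). Sox9 was -0.70 (SE 0.36, edgeR adjusted p = 0.98). The groups at 5 and 50 MPa overlapped for Sox9, while both stood below the controls and above every metatarsal. The order of the group means of Sox9 was 808 CPM in control hip caps (SD 137, n = 3), 509 at 5 MPa (SD 149, n = 4), 362 at 50 MPa (SD 103, n = 3), and then 128, 122 and 115 CPM in metatarsals at 0, 50 and 5 MPa, which overlapped one another.

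In metatarsals neither pressure changed any of the 10 genes past the threshold, and no gene of the whole table passed (0% at 5 and at 50 MPa, edgeR), with 3.24% and 3.89% of all genes at an unadjusted p under 0.05 and none of these 10. DESeq2 called none of the 10 either, and between 50 and 5 MPa in metatarsals none passed (0% of all genes, with 0.761% at an unadjusted p under 0.05 and none of the 10). Sox9 was at 96.2, 152, 104 and 109 CPM at 5 MPa and at 138, 102, 102 and 147 CPM at 50 MPa, around the 117 to 136 CPM of the controls. Its log2 fold change at 50 MPa was -0.10, with a 95% interval from -0.54 to 0.34, and at 5 MPa it was -0.12 (-0.56 to 0.31). Zbtb20 was -0.10 at 50 MPa (-0.46 to 0.26), Sox5 0.09 (-0.32 to 0.49) and Sox6 0.07 (-0.29 to 0.43). For Foxa2 and Foxa3 the counts left the intervals wide, at 0.18 (-0.47 to 0.83) and -0.57 (-1.66 to 0.52).

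Whether pressure acted differently in the 2 tissues was tested as an interaction, and none of the 10 genes passed at either pressure (0.132% of all genes at 50 MPa and 0.0188% at 5 MPa). At 50 MPa the log2 difference was -1.13 for Sox9 (SE 0.35, edgeR adjusted p = 0.104) and -1.21 for Nkx3-2 (SE 0.39, edgeR adjusted p = 0.111). DESeq2 called Sox9 there. At 5 MPa the lowest was Nkx3-2 at -1.03 (SE 0.42, edgeR adjusted p = 0.375).

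The known target genes of the SOX trio were read beside the factors, since SOX9, SOX5 and SOX6 act on their enhancers together. All 19 of 19 targets were higher in control hip caps (14.1% of all genes), with a median log2 fold change of 3.66. The highest were Snorc (6.30), a small proteoglycan of cartilage, Comp (5.86), which encodes cartilage oligomeric matrix protein, and Matn3 (5.12), which encodes a matrilin. The lowest were Mia (2.81), Col27a1 (2.28), a fibrillar collagen gene, and Wwp2 (1.81), the host gene of the cartilage microRNA miR-140. In hip caps at 50 MPa 0 of 19 were above 0 and the median was -1.08, and Comp alone passed, at -1.35 (SE 0.38, edgeR adjusted p = 0.0455), where 1.86% of all genes were called lower and 51% were above 0. None of the 19 was above 0 in any of the 38 alternative fits, and Comp was called in 10 of them. At 5 MPa 0 of 19 were above 0 with a median of -0.73 (50.9% of all genes were above 0), and none was called. All 19 were above 0 at 5 MPa with all 24 libraries in the model (median 0.425), and 6 were with library sizes as the only scaling. In metatarsals 9 of 19 were above 0 at 5 MPa and 8 of 19 at 50 MPa, with medians of -0.03 and -0.05 and no call, where 49.5% and 50.3% of all genes were above 0. These targets include 6 chondrocyte markers, so they are no measure apart from the marker sums.

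**Figure D5:**
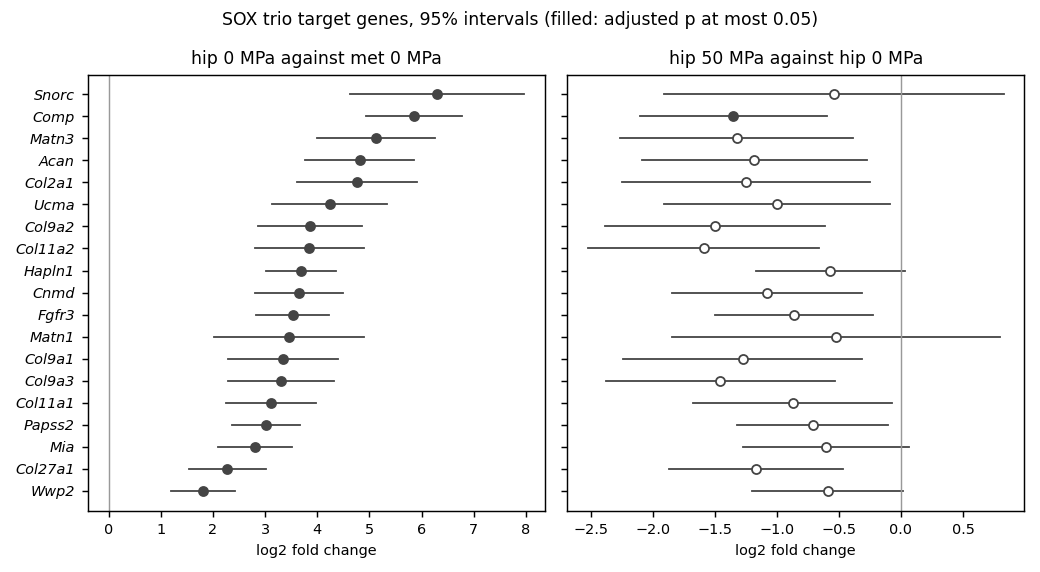
Log2 fold changes of the 19 target genes of the SOX trio between control hip caps and control metatarsals, and between hip caps at 50 MPa and control hip caps, with filled points for edgeR adjusted p-values of at most 0.05. All 19 lie above 0 in the first comparison and below 0 in the second, where Comp alone is filled.

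Of the other 15 SOX genes listed, 10 passed the filter, and none was higher in control hip caps. Lower were 4 of the 10 (15.9% of all genes), namely Sox11 (-5.25) and Sox4 (-2.31), SOXC genes of progenitor cells, Sox7 (-1.33), an endothelial SOX gene, and Sox12 (-0.76). Sox13, a relative of Sox5 and Sox6, had the highest value at 0.21 (edgeR adjusted p = 0.664), followed by Sox12 and Sox1 (-1.29, not called), and Sox10, of the same SOXE subgroup as Sox9, was at -2.14 (edgeR adjusted p = 0.112). At 50 MPa in hip caps Sox12 fell, with a log2 fold change of -0.84 (SE 0.20, edgeR adjusted p = 0.0261), and the other 9 were not called (1.86% of all genes were called lower). Sox12 was called in 24 of the 38 alternative fits.

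Among 33 partners of SOX9 and other chondrocyte transcription factors, 31 were tested, 13 were higher in control hip caps and 8 were lower (14.1% and 15.9% of all genes). The highest were Zbtb16 (4.01), Epas1 (3.89), the gene of the hypoxia factor HIF2A, and Shox2 (3.24). The lowest were Pax9 (-4.16), Ppargc1a (-2.94) and Barx2 (-2.56). At 50 MPa in hip caps only Gli2, a transcription factor of hedgehog signalling, passed, at -0.76 (SE 0.18, edgeR adjusted p = 0.025; 1.86% of all genes were called lower), and none passed at 5 MPa. Gli2 was called in 27 of the 38 alternative fits.

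For Nfatc1 and Nfatc2 the calcineurin pathway was listed, and all 15 of its other genes were tested. Between control tissues 2 were higher, the catalytic calcineurin subunits Ppp3ca (1.81) and Ppp3cc (0.86), and 2 were lower, Nfatc4 (-2.29) and the third catalytic subunit Ppp3cb (-1.45), where 14.1% of all genes were higher and 15.9% lower. The next values in order were Nfat5 (0.39) and Csnk1a1 (-0.26), neither called. At 50 MPa in hip caps Nfatc3 rose by a log2 fold change of 0.78 (SE 0.21, edgeR adjusted p = 0.0407), as did Csnk1a1, a kinase that phosphorylates NFAT proteins, by 0.73 (SE 0.20, edgeR adjusted p = 0.0373). Of all genes 3.32% were called higher there. Nfatc3 was called in 11 of the 38 alternative fits and Csnk1a1 in 12.

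The genes whose level was most like that of each factor were found among 13722 genes, as Pearson correlations of log2 CPM over the 22 libraries. These libraries share runs, and the 2 tissues form separate clusters. Genes most like each factor are therefore given over all libraries and, from a second search, after each tissue's mean was subtracted. A gene named in only 1 of these sets has its r for that set alone. The names depend on the measure. With Spearman's rho in place of Pearson's r, at most 1 of each set of 3 stayed over all libraries (0 of 3 for 7 of the 10 factors), and at most 2 after subtraction (0 of 3 for 3 factors). Over all libraries Sox9 was most like Pitpnc1 (0.979), Myh14 (0.978) and Dhrs3 (0.977), and after subtraction like Rarg (0.887), Zfp608 (0.883) and Smarca2 (0.881). No gene was in both sets of 3 for Sox9. For Sox8 the gene of the growth plate receptor Fgfr3 was in both, at 0.987 and 0.935, as was the glutamine transporter gene Slc38a3, at 0.988 and 0.915.

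Sox6 was most like its partner Sox5 (0.904), then Trim68 (0.903) and Nrbp2 (0.902), and Sox5 was like Zkscan7 (0.924) and Nrbp2 (0.917). After subtraction the highest for Sox5 were Nckap5 (0.956), Zfpm2 (0.920) and Plcb1 (0.913), and for Sox6 they were Phtf2 (0.900) and Uvssa (0.882). Foxa2 was most like the Wnt antagonist genes Wif1 and Frzb and like Grb14 (each 0.991), and after subtraction like Shroom4 (0.741), Unc80 (0.713) and Tmc6 (0.684). Foxa3 was most like Nfe2l1 (0.983), Rhod (0.982) and Pxdc1 (0.982), and after subtraction like Slc45a4 (0.887), Ormdl3 (0.882) and Gga2 (0.876).

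Zbtb20 was most like Phtf2 (0.995), Maml2 (0.994) and Xylt1 (0.993), and after subtraction like Tcaf1 (0.914), Tdrd3 (0.878) and Insr (0.865). Nkx3-2 was like Nrbp2 (0.952) and Dync1i1 (0.952), and after subtraction like Fbxo17 (0.885), Cntrob (0.853) and Nrbp2 (0.851). Nfatc1 was most like Zmiz2 (0.839), Kctd17 (0.833) and Ripor1 (0.827), and after subtraction like Tpcn1 (0.876), Sfxn3 (0.848) and Abr (0.837). Nfatc2 was most like Pacs1 (0.901), Trpm4 (0.890) and Pitpnm2 (0.885), and after subtraction like Ppp2r3d (0.807), Mn1 (0.751) and Pacs1 (0.745).

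Among the 10 genes themselves, over the same libraries and after each tissue's mean was subtracted, the highest correlations were Sox6 with Zbtb20 (0.846) and Sox5 with Sox6 (0.834), while Sox9 was at 0.688 with Sox8, 0.604 with Sox6 and 0.521 with Sox5. Nfatc1 was negative with Zbtb20 (-0.430), Sox8 (-0.407) and Nkx3-2 (-0.389). Foxa2 and Foxa3, at 0.935 over all libraries, were at 0.166 after subtraction.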

How the data were processed

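RNA was sequenced in 24 libraries, 4 for each tissue and pressure. The authors deposited estimated counts per gene, not normalised and not pooled, made by trimming with Trim Galore 0.6.5, quantification with kallisto and summing over transcripts. GRCm39 is named in the submitters' processing notes, and the kallisto version was not given in the sources used here. The study reports low RNA integrity for these explants. The counts were rounded to whole numbers and tested in R 4.3.3 with edgeR 4.0.16, using the quasi-likelihood F test (robust), TMM factors, the default filter on low counts and 1 model over the 22 libraries that the study kept, with group, sequencing run and library type as terms, as in the study's methods. The run is not in the sample labels and was read from the strip above the study's heat map, so it is uncertain. Adjustment was by Benjamini and Hochberg over 21283 genes for every comparison, with a threshold of 0.05. The fit was tested on simulated data that held no effect of run or library type, so that test did not examine these terms. Levels are CPM, counts scaled to library size with TMM factors, and log2 CPM used a prior count of 2. Exact permutation tests on log2 CPM were two-sided. Per the study's methods each hip cap library came from its own mouse, with 4 mice in a group, while nothing says whether metatarsal samples share embryos or litters, so their p-values measure the spread between these samples. Culture days are not given. No 2 libraries held the same values.

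The 10 genes and the gene lists were chosen with earlier results of these data known. All 10 are described, and of each list the 3 highest and 3 lowest genes between control tissues and each gene called under pressure are named. The likeness search took genes with a symbol and a mean of at least 1 CPM. The 3 genes most like each factor are named, except that some are not reported here. Promoter sequences and motif shares come from RefSeq (GRCm38.p6). The alternatives were DESeq2 1.42.0, other size factors and filters, other batch terms, a replicate block, all 24 libraries, single runs or library types, each tissue alone, and each library left out. Fits with all 24 libraries under other batch terms, the fit without MC1 and M504, and the ratios within a library were chosen after seeing the data.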

Additional observations from a re-analysis of the deposited data

Results flagged for a closer look

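In groups of 4 deposited libraries, the highest or lowest value was compared with its nearest neighbour by Dixon's ratio. Of 60 groups, 7 passed its 95% critical value, where chance gives about 1 in 20. Foxa3 in hip cap H504 (50 MPa) was at 54.47 CPM and in the other 3 at 7.705 to 10.13 CPM. Nfatc2 in H502, which the study left out, was at 19.03 CPM, against 6.309 to 7.118 CPM. Sox5 in hip cap H53 (5 MPa) was at 84.73 CPM, against 168.6 to 183 CPM. Sox8 was at 13.38 CPM in control metatarsal MC3, against 6.407 to 7.464 CPM, and at 6.421 CPM in metatarsal M51 (5 MPa), against 7.651 to 7.785 CPM. Nkx3-2 in metatarsal M503 (50 MPa) was at 7.391 CPM, against 5.883 to 6.019 CPM, and Zbtb20 in metatarsal M504 was at 77.1 CPM, against 119.8 to 126.2 CPM. The causes were not tested.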

How the results depend on the processing

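Of 413 counts of called genes recomputed over 11 comparisons, 379 stayed within 1.5 times the reported count and 34 did not. A reported count of 0 was scored as kept wherever the alternative also gave 0, so comparisons without a call add to the 379. Most of the counts that moved were those of hip caps at 50 MPa against controls. Between control tissues 8 of the 10 genes were called, 4 with all 24 libraries, 5 in run 1 alone and 5 to 8 with 1 library left out (5 without MC1). In hip caps at 5 MPa, 0 became 1 without batch terms. In hip caps at 50 MPa, where 1 was called, 3 were called with DESeq2 and 2 with at least 10 counts in every library, without batch terms or with run alone. None was called there with library sizes alone, with all 24 libraries (also without batch terms, or with library type alone), with each tissue fitted alone, in run 1 alone, or without MC1 and M504, and 0 to 3 with 1 library left out (0 without HC3, H501, H503, MC1 or M504, and 3 without HC2 or H53). Between tissues at 50 MPa, where 7 were called, 4 were called with at least 10 counts in every library, 3 in run 1 alone, 2 with all 24 libraries and 2 with these and library type alone, and 3 to 7 with 1 library left out (3 without M504). The interaction at 50 MPa gave 1 call with DESeq2 and 0 to 2 with 1 library left out. With library sizes alone, Sox6 turned to -0.057 between control tissues and to -0.061 between tissues at 5 MPa, and Nfatc1 turned to -0.55 between tissues at 5 MPa. The causes were not tested.

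No pairing of the libraries by replicate number was seen. Over 50 pairs with the same number, deviations from the fit of group, run and library type correlated between -0.366 and 0.351 (median 0.015). Over 151 pairs with different numbers the range was -1 to 1 (median -0.006). The model terms also shape these deviations, so the check cannot exclude a pairing. A replicate block gave 2 calls in hip caps at 50 MPa, Sox9 and Nfatc2, in place of 1, and changed no other count of calls by over 1.5 times. Depth limits Foxa2 in metatarsals, at 2 to 13 counts per library.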
